A study of Homo sapiens with 24 samples.

Results

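The glycolysis and hypoxia response genes are a list of 41 genes with 5 roles: 15 glycolytic enzymes, 4 glucose and lactate transporters, 4 kinases that set the rate of glycolysis or of pyruvate oxidation in mitochondria, 5 genes of the hypoxia-inducible factor (HIF) and its oxygen-sensing hydroxylases, and 13 HIF target genes. A gene was read through probe sets that the platform annotation assigns to a single symbol. That gave 38 of the 41 members, among 19775 genes named on the arrays in all, and SLC16A1, SLC16A3 and CA9 were not analysed here. The members have 95 probe sets together, and each gene is given by the set with the highest mean log2 signal, without sets marked _x_at where another existed. ALDOA and LDHB have only sets with that mark, which can cross-hybridise, and are given by 214687_x_at and 201030_x_at.

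Glycolysis splits glucose into pyruvate through a fixed chain of enzymes, of which hexokinase traps glucose in the cell, phosphofructokinase commits it to the pathway and lactate dehydrogenase turns pyruvate into lactate. HIF is a transcription factor of an alpha subunit (HIF1A or EPAS1) and the constant partner ARNT. Prolyl hydroxylases such as EGLN1 and EGLN3 mark the alpha subunits for destruction while oxygen is present, and without oxygen HIF binds short core sequences near genes for glycolysis, blood vessel growth, pH control and mitochondrial turnover. I-BET762 (GSK525762A) is a small molecule that displaces BET proteins from acetylated histones. HIF activity itself is set largely at the level of protein, which arrays do not measure.

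RNA came from 4 prostate cancer cell lines, each treated for 24 hours with vehicle, 0.5 µM or 10 µM I-BET762 in 2 independent biological replicates, on 24 arrays. LNCaP and VCaP are androgen-responsive lines from metastases, PC3 was derived from a metastasis in bone, and NCI-H660 has neuroendocrine features. All were grown in RPMI-1640 with 10% fetal bovine serum, and the oxygen level of the cultures is not given in the sources used here. Each line stands for a single tumour, so differences between lines are differences between these cultures.

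The labels of the LNCaP and VCaP arrays go against a defining marker. ERG, which the TMPRSS2-ERG fusion of VCaP switches on, lay between 2867 and 7084 on the 6 LNCaP-labelled arrays and between 5.85 and 28.3 on the 6 labelled VCaP. ETV1, the gene that is rearranged in LNCaP, lay between 14.5 and 90.3 on the former and between 192 and 408 on the latter. Values of these lines are therefore given as those of LNCaP-labelled or VCaP-labelled arrays, and which line each label stands for was not settled. The neuroendocrine marker INSM1 lay between 1491 and 8165 in NCI-H660 and between 1.17 and 25.4 in PC3. HEXIM1, a common response marker of BET inhibition, rose in every line at 10 µM, by between 0.95 (PC3) and 2.51 (LNCaP-labelled arrays) on the log2 scale. Signals are MAS5 intensities on a linear scale, and between 44.4% and 50.1% of the probe sets of an array reached a signal of 100.

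A member passed where limma's adjusted p was under 0.1 and the mean signal was at least 100 in either group compared. That floor stands in for detection calls, and where a group lay under it, the fold is a lower bound computed with the floor in its place. Changes are log2 differences with the moderated standard error (SE) of the fit, and signals are means ± SD over 2 arrays. Signals of different probe sets are not compared with each other. An array averages a whole culture, so fewer cells with a transcript and less of it per cell cannot be told apart.

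In vehicle, NCI-H660 was the line with the highest signal for 25 of the 38 members (65.8%), against 29.9% of the 13841 genes with a vehicle mean over the floor in at least 1 line, as all 38 members had. For 19 of those 25 it differed from the next line. The matching share of all genes was not computed, for this count or for those by role, so whether they are unusual cannot be told. The pattern lay mostly in HIF targets, where NCI-H660 was highest for 11 of 12 and differed from the next line for 9, and in the kinases, where it was highest for 4 of 4. Among the 15 enzymes it was highest for 7 (46.7%) and lowest for 5 (33.3%, against 29.5% of the 13841 genes). The LNCaP-labelled arrays were lowest for 15 of the 38 members (39.5%, against 25.4%). Of the members, 35 differed between the LNCaP-labelled arrays and NCI-H660 (92.1%, against 46.7% of all genes), 34 between PC3 and NCI-H660 (46.9% of all genes), 29 between the VCaP-labelled arrays and NCI-H660 (46.1%), 27 between the LNCaP-labelled arrays and the VCaP-labelled arrays (38.1%), 27 between the LNCaP-labelled arrays and PC3 (42%) and 25 between the VCaP-labelled arrays and PC3 (41.7%). In that last comparison 15 members were higher on the VCaP-labelled arrays and 10 in PC3 (21.4% and 20.3% of all genes), and 19 and 4 after each array was centred on its median. All genes include many under the floor in both groups, which could not pass. Among genes that reached it in either group, between 61.9% and 71.9% differed in these 6 comparisons, so the members stood furthest from them in the comparisons of the LNCaP-labelled arrays and of PC3 with NCI-H660 (92.1% and 91.9% of the members at the floor, against 71.9% and 70.6%).

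**Figure D1:**
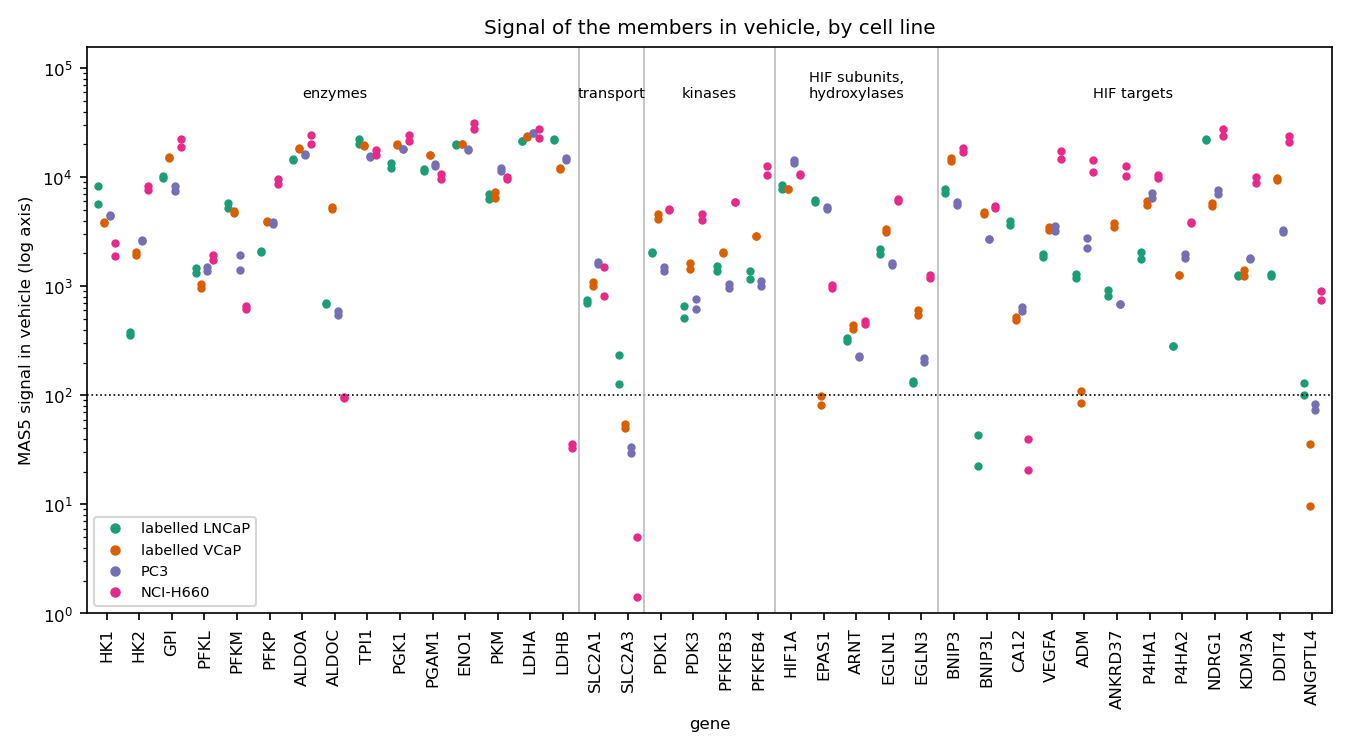
MAS5 signal (log axis) of the 38 measured members on the 8 vehicle arrays, by role and gene. Each dot is an array, coloured by labelled cell line, and the dotted line is the floor of 100. NCI-H660 lies highest for 11 of the 12 HIF targets and 4 of the 4 kinases, while LDHB and CA12 lie under the floor there.

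Some members were present in most lines and under the floor in another. LDHB, the lactate dehydrogenase subunit that favours pyruvate, had vehicle signals of 33.2 and 35.9 in NCI-H660, against 11915 and 12159 on the VCaP-labelled arrays, 15030 and 14495 in PC3 and 22180 and 21988 on the LNCaP-labelled arrays. Differences among the other lines did not pass for LDHB, with 95% intervals between -2.03 and 2.61, and each was at least 120-fold above NCI-H660. BNIP3L, a mitophagy receptor, lay at 43.1 and 22.4 on the vehicle LNCaP-labelled arrays and between 2685 and 5485 on those of the other lines, at least 26.9-fold higher. EPAS1, the second HIF alpha subunit, was under the floor on the vehicle VCaP-labelled arrays, at 81.8 and 98, and was at least 9.9-fold higher in each other line. ADM, which encodes the vasodilator peptide adrenomedullin, was also under the floor there on average (97.5 ± 17.6, SD, n = 2) and was at least 12.4-fold higher elsewhere. HK2, the inducible hexokinase, was 21.5-fold higher in NCI-H660 (7947 ± 517, SD, n = 2) than on the LNCaP-labelled arrays (370 ± 17.2). LDHA, the subunit that favours lactate, passed between no pair of lines, with means from 21375 to 25618 and 95% intervals between -0.57 and 0.34.

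The members, like all genes, passed most often on the LNCaP-labelled arrays. At 0.5 µM, 6 of 38 members were higher than vehicle and 14 lower (15.8% and 36.8%, against 10.4% and 9.92% of all genes). At 10 µM, 8 were higher and 12 lower (21.1% and 31.6%, against 16.3% and 16.1%). The median change of the members there was -0.36 at 0.5 µM and -0.25 at 10 µM, beside 0.09 and 0.06 over all genes. On the VCaP-labelled arrays, 1 member was higher and 6 lower at 0.5 µM (2.63% and 15.8%, against 6.86% and 7.73% of all genes), and 5 were higher and 8 lower at 10 µM (13.2% and 21.1%, against 11.9% and 12.9%). PC3 had 4 higher and 4 lower at 0.5 µM (10.5% each way, against 4.06% and 2.71%) and 7 higher and 5 lower at 10 µM (18.4% and 13.2%, against 9.87% and 8.59%). In NCI-H660, 1 member was higher and 0 were lower at 0.5 µM by limma (2.69% and 2.02% of all genes), where unadjusted p-values under 0.05 gave 5 and 1, and 5 were higher and 3 lower at 10 µM (13.2% and 7.89%, against 10.5% and 10.4%). With a fold over 2, 5 members passed at 0.5 µM and 7 at 10 µM on the LNCaP-labelled arrays (13.2% and 18.4%, against 5.01% and 13.1% of all genes), 3 and 6 on the VCaP-labelled arrays (7.89% and 15.8%, against 3.25% and 7.95%), 1 and 4 in PC3 (2.63% and 10.5%, against 1.25% and 4.29%), and 0 and 2 in NCI-H660 (against 0.92% and 5.67%). Between 34 and 37 members reached the floor in either group of these comparisons, a larger share than of all genes, and among genes that reached it the members stood apart less. On the LNCaP-labelled arrays 54.1% of such members passed at each dose, against 33.9% of such genes at 0.5 µM and 53.8% at 10 µM, and at 10 µM the figures were 37.1% against 41.9% on the VCaP-labelled arrays, 33.3% against 30.2% in PC3 and 23.5% against 33.8% in NCI-H660. The share at 10 µM was thus near or under that of genes at the floor in each line, while members lower on the LNCaP-labelled arrays at 0.5 µM made up 37.8% against 16.5%.

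These counts moved with single arrays. At 0.5 µM on the LNCaP-labelled arrays, 12 members passed without vehicle replicate 1 and 11 without treated replicate 1, in place of 20. With the VCaP-labelled arrays at 10 µM, 8 in place of 13 passed without vehicle replicate 1. In PC3 at 0.5 µM, 3 or 4 in place of 8 passed whichever of its 4 arrays was left out, and at 10 µM 6 in place of 12 passed without vehicle replicate 2. In NCI-H660 at 10 µM, 5, 4 and 5 passed in place of 8 without vehicle replicate 2, treated replicate 1 and treated replicate 2, and at 0.5 µM 0 in place of 1 passed without vehicle replicate 2 or either treated array. Centring each array on its median gave 1 higher and 8 lower (VCaP-labelled, 10 µM), 1 higher and 3 lower (PC3, 0.5 µM) and 12 higher and 1 lower (NCI-H660, 10 µM), where quantile normalization gave 4 higher and 6 lower. No member change that passed turned its sign under either scaling.

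**Figure D2:**
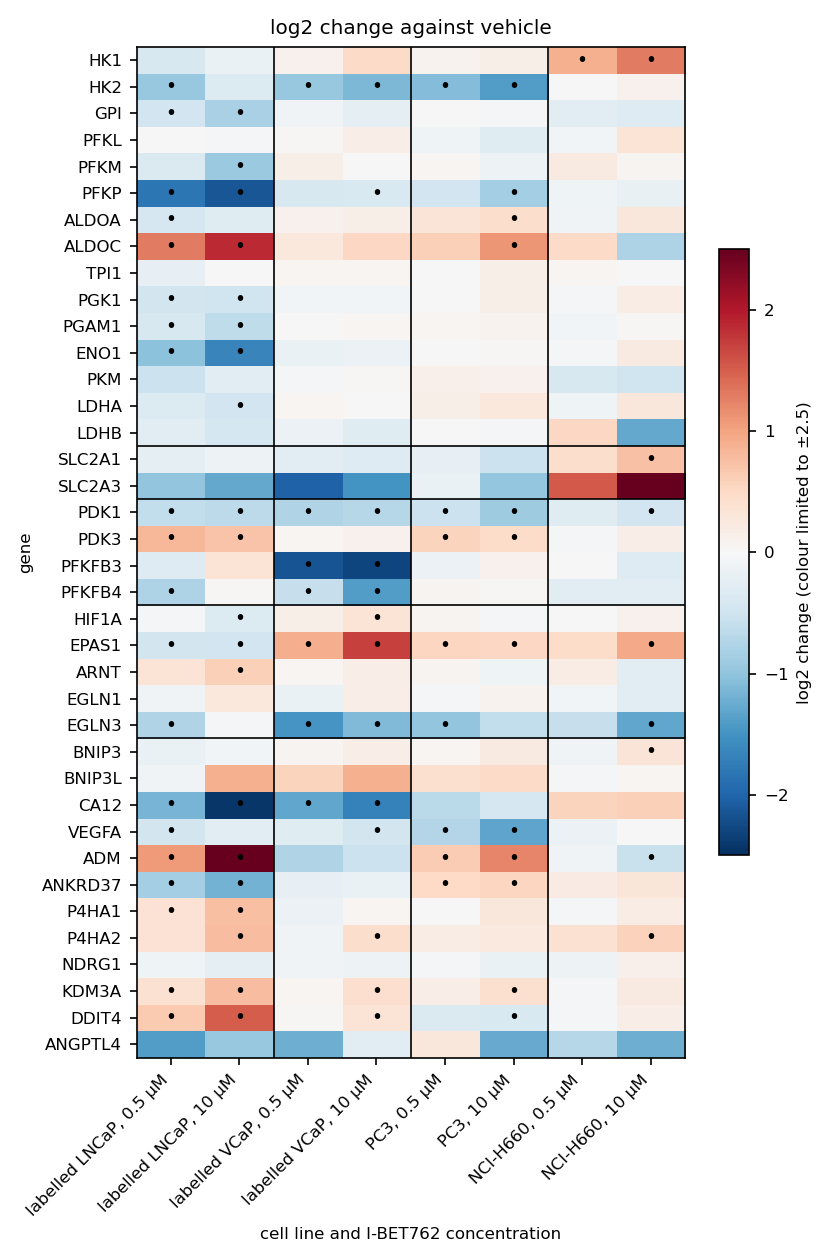
Log2 change of the 38 measured members against vehicle (rows, by role) in 4 lines at 0.5 and 10 µM I-BET762 (columns), from limma on 2 arrays a group. Red is higher and blue lower than vehicle, colour is saturated at the ends of the scale, black dots mark the 89 changes that passed, and changes without a dot include genes under the floor, such as SLC2A3. PDK1 is the row with a dot on blue in all 4 lines at 10 µM.

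Over the 8 comparisons with vehicle, 29 of the 38 members passed at least once and 14 did so with a fold over 2 (76.3% and 36.8%, against 48.2% and 22.5% of all genes, those under the floor included). The 89 passing changes all had treated arrays that lay beyond both vehicle arrays. With 2 arrays a group this nearly follows from passing and adds no support to the calls, and the share among all passing genes was not computed. Of the genes read by more than 1 probe set, 45 passing changes had a further set at the floor, and 95 of those 97 further sets moved the same way, 60 of them past the threshold and 0 past it the opposite way. The 2 sets that moved the opposite way were both of HK2 in PC3 at 0.5 µM. The 9 members that never passed were PFKL, TPI1, PKM, LDHB, SLC2A3, EGLN1, BNIP3L, NDRG1 and ANGPTL4. The fit shares a spread per probe set over all groups, those under the floor included, so not passing does not show an unchanged signal. BNIP3L went from 4561 and 4796 in vehicle to 8959 and 8300 at 10 µM on the VCaP-labelled arrays. In PC3 it went from 2685 and 2692 to 3778 and 3721, and in NCI-H660 from 5485 and 5170 to 5413 and 5537. LDHB went from 22180 and 21988 to 16206 and 16447 on the LNCaP-labelled arrays. PDK1 was lower in 4 of 4 lines at 10 µM and PFKP in 3, while EPAS1, P4HA2 and KDM3A were higher in 3. The share of all genes that passed one way in 3 or 4 lines was not computed, so whether this is unusual cannot be told.

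The members that passed with a fold over 2 at 10 µM on the LNCaP-labelled arrays and have a single annotated start are shown by the 250 bases before that start, since HIF binds the cores ACGTG and GCGTG. The sequences are RefSeq's on GRCh38.p14, 5′ to 3′ on the gene's strand, with every core on either strand in capitals. Where ACGTG is read on both strands at 1 place the capitals hold CACGTG, the E box that c-Myc and other factors bind. Either core stood in this window of 59.4% of 64 starts of 36 listed members, SLC16A3 and CA9 among them, against 43.2% of 35116 starts of all genes, and CACGTG in 10.9% against 6.34%. PFKP has 4 annotated starts and is not shown.

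ALDOC, chr17:28576896-28577145, minus strand, 5 cores: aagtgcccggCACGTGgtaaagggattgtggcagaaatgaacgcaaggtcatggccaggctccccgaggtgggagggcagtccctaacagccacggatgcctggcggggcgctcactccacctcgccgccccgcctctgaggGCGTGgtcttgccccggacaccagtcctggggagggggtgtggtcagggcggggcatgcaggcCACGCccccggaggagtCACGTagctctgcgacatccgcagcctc

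ENO1, chr1:8878687-8878936, minus strand, 2 cores: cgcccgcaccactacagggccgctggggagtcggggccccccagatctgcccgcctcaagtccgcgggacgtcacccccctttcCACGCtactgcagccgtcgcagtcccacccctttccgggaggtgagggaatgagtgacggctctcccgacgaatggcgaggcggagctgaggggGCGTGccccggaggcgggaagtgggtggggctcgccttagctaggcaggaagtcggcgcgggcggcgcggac

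CA12, chr15:63381847-63382096, minus strand, 1 core: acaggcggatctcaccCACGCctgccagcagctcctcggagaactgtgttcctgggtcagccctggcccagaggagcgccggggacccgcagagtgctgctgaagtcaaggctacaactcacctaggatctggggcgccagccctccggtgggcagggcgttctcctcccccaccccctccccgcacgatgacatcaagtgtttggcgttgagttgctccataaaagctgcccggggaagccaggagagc

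ADM, chr11:10304823-10305072, plus strand, 1 core: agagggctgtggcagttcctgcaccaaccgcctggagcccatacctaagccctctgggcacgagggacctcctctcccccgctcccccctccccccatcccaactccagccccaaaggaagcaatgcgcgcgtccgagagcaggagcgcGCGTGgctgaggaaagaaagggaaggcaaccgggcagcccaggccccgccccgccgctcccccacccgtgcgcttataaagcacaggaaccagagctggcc

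ANKRD37, chr4:185396591-185396840, plus strand, 3 cores: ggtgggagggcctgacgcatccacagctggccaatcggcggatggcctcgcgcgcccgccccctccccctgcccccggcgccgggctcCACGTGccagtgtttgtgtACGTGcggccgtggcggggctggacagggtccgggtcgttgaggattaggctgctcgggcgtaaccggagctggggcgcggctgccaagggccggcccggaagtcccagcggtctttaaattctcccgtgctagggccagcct

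DDIT4, chr10:72273674-72273923, plus strand, 3 cores: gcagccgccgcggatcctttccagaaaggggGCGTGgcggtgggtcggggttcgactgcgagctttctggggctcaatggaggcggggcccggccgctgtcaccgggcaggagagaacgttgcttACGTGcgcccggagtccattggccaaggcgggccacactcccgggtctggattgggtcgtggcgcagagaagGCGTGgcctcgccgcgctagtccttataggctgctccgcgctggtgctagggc

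Members with and without CACGTG moved both ways: ALDOC rose and ANKRD37 fell with the E box in front of them, and ADM and DDIT4 rose and ENO1 and CA12 fell without it in this window. A match is a description of the letters and does not show binding.

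Among the 15 glycolytic enzymes, 7 were lower and 1 higher at each dose on the LNCaP-labelled arrays (46.7% lower, against 9.92% of all genes at 0.5 µM and 16.1% at 10 µM). Of genes that reached the floor in either group, 16.5% were lower there at 0.5 µM and 26.7% at 10 µM. The median change of the 15 enzymes there was -0.41 at 0.5 µM and -0.44 at 10 µM. Among the VCaP-labelled arrays 1 enzyme was lower at 0.5 µM and 2 at 10 µM, in PC3 1 was lower at 0.5 µM and 2 were lower and 2 higher at 10 µM, and in NCI-H660 1 was higher at each dose. These counts are near the shares of all genes, with 13.3% lower at 10 µM on the VCaP-labelled arrays against 12.9% and 13.3% each way in PC3 against 9.87% higher and 8.59% lower. Of genes at the floor, 21.8% were lower on the VCaP-labelled arrays, and 16.1% higher and 14% lower in PC3. Whether the enzymes as a group differed between lines was not tested. Medians of the enzymes outside the LNCaP-labelled arrays lay between -0.04 and 0.08.

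PFKP, the platelet-type phosphofructokinase (probe set 201037_at, chr10:3067548-3136805), fell furthest of the enzymes. Its signal on the LNCaP-labelled arrays was 2059 and 2123 in vehicle, 545 and 655 at 0.5 µM and 474 and 484 at 10 µM. The treated arrays lay far under vehicle and the 2 doses did not overlap, with changes of -1.81 (SE 0.15, limma adjusted p = 6.15e-06) and -2.13 (SE 0.15, adjusted p = 2.27e-07). In PC3 the signal went from 3712 and 3913 in vehicle to 2216 and 2020 at 10 µM (-0.85, SE 0.15, limma adjusted p = 0.0021). The VCaP-labelled arrays had 3894 and 3941 in vehicle and 3531 and 2532 at 10 µM, and the change of -0.39 (limma adjusted p = 0.0959) was lost after quantile normalization and without vehicle replicate 1, vehicle replicate 2 or treated replicate 2, where it was -0.15. NCI-H660 changed by -0.18, with a 95% interval from -0.49 to 0.14. The further probe set lay at 65.2 or lower on the LNCaP-labelled arrays, and averaging it in gave -0.19 and -0.41 there and -0.25 in PC3, no longer calls. The muscle-type gene PFKM also fell on the LNCaP-labelled arrays at 10 µM (-0.92), while the liver-type gene PFKL changed by -0.03 there, with a 95% interval from -0.35 to 0.29.

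ENO1, the enolase of most tissues (probe set 201231_s_at, chr1:8861000-8878686), fell on the LNCaP-labelled arrays and passed in no other line. There its signal was 20046 and 19550 in vehicle, 9719 and 9616 at 0.5 µM and 6092 and 6462 at 10 µM. The 3 groups were fully separated, with changes of -1.03 (SE 0.11, limma adjusted p = 4.83e-05) and -1.66 (SE 0.11, adjusted p = 1.83e-07) and a further fall of -0.62 from the lower to the higher dose. The 3 further probe sets of ENO1 also passed at 10 µM, with changes of -1.06 and -1.69 and a fall from 198 to 26, under the floor. In the 3 other lines the change at 10 µM was -0.14 (labelled VCaP), 0.03 (PC3) and 0.22 (NCI-H660), and their 95% intervals lay between -0.39 and 0.46. The difference in response between the LNCaP-labelled arrays and the VCaP-labelled arrays passed (-1.51, SE 0.16, limma adjusted p = 8.13e-05).

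ALDOC, the brain-type aldolase (probe set 202022_at, chr17:28573120-28576895), passed as higher on the LNCaP-labelled arrays and in PC3. It went on the LNCaP-labelled arrays from 698 and 689 in vehicle to 1658 and 1760 at 0.5 µM and 2501 and 2580 at 10 µM. That is a change of 1.30 (SE 0.35, limma adjusted p = 0.0241) and 1.87 (SE 0.35, adjusted p = 0.00109), and the call at 0.5 µM was lost without vehicle replicate 2 or treated replicate 2. PC3 went from 594 and 551 to 1168 and 1307 at 10 µM (1.11, adjusted p = 0.0577), a call that was lost when any 1 of the 4 arrays was left out. The VCaP-labelled arrays, with the highest vehicle signal, went from 5086 and 5358 to 6070 and 6424 at 0.5 µM and 7798 and 7154 at 10 µM. Those groups did not overlap, but the changes of 0.26 and 0.52 did not pass. In NCI-H660 the vehicle arrays lay at 93.8 and 96.6, under the floor, and those at 10 µM at 31.4 and 97.3. Its 0.5 µM arrays lay at 159 and 112, at least 1.35-fold above the 10 µM arrays. The other aldolase, ALDOA, which muscle and most tissues use, was lower on the LNCaP-labelled arrays at 0.5 µM (-0.42) and higher in PC3 at 10 µM (0.43), and both calls were lost without either vehicle array or treated replicate 1.

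HK2 (probe set 202934_at, chr2:74834127-74893359) fell in 3 lines at 0.5 µM. PC3 had 2609 and 2645 in vehicle, 1119 and 1356 at 0.5 µM and 1113 and 902 at 10 µM, with changes of -1.09 (SE 0.16, limma adjusted p = 0.0021) and -1.39 (SE 0.16, adjusted p = 9.58e-05). The VCaP-labelled arrays went from 2048 and 1944 to 980 and 1103 at 0.5 µM (-0.94) and 1028 and 810 at 10 µM (-1.13, limma adjusted p = 0.000193). All treated arrays of both lines lay under their vehicle arrays. The LNCaP-labelled arrays held 383 and 358 in vehicle, 179 and 208 at 0.5 µM (-0.94) and 311 and 271 at 10 µM, so the lower dose was the lower group and the rise between doses passed (0.59, limma adjusted p = 0.0395). NCI-H660 lay between 7582 and 9025 on all 6 arrays and changed by 0.10 at 10 µM, with a 95% interval from -0.24 to 0.44. HK2 has 2 further probe sets with means of 318 or lower in every group, and averaging all 3 ended both PC3 calls (-0.20 and -0.58) and that of the VCaP-labelled arrays at 0.5 µM (-0.66). In PC3 at 0.5 µM both further sets reached the floor and went up, against the fall of the set used, without passing. At 10 µM in PC3 both went down, also without passing.

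HK1, the constitutive hexokinase (probe set 200697_at, chr10:69270000-69401882), rose in NCI-H660 and passed in no other line. Its signal there was 2486 and 1914 in vehicle, 3916 and 4153 at 0.5 µM and 5272 and 5455 at 10 µM. The 3 groups did not overlap, with changes of 0.89 (SE 0.22, limma adjusted p = 0.067) and 1.30 (SE 0.22, adjusted p = 0.00171), and the call at 0.5 µM was lost whichever of the 4 arrays was left out. On the VCaP-labelled arrays HK1 went from 3827 and 3888 to 5427 and 5271 at 10 µM. Those arrays did not overlap, but the change of 0.47 did not pass. At 10 µM the calls thus lay in different lines, HK2 down in PC3 and on the VCaP-labelled arrays and HK1 up in NCI-H660. The difference in response at 10 µM between PC3 and NCI-H660 passed for both, at -1.49 (SE 0.22) for HK2 and -1.16 (SE 0.32) for HK1 (limma adjusted p = 0.00293 and 0.0669).

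Further enzymes fell by less on the LNCaP-labelled arrays. At 10 µM these were GPI (-0.81), which turns glucose 6-phosphate into fructose 6-phosphate, PGAM1 (-0.63), a phosphoglycerate mutase, PGK1 (-0.50), a kinase that makes ATP, and LDHA (-0.47). GPI, PGAM1 and PGK1 had also passed at 0.5 µM (-0.47, -0.41 and -0.45), though not without vehicle replicate 1 or treated replicate 1. LDHA did not pass without vehicle replicate 1, vehicle replicate 2 or treated replicate 1. TPI1, which interconverts the products of aldolase, changed by 0.01 at 10 µM there (95% interval from -0.26 to 0.29), and PKM, the pyruvate kinase of most tissues, by -0.27 (95% interval from -0.72 to 0.18).

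Of the transporters, SLC2A1, the basal glucose transporter (probe set 201250_s_at, chr1:42925353-42958868), rose in NCI-H660 at 10 µM. Its 6 arrays there held 1508 and 809 in vehicle, 1444 and 1563 at 0.5 µM and 2025 and 1688 at 10 µM. Vehicle replicate 2 was the low array, and the change of 0.74 (SE 0.21, limma adjusted p = 0.0337) was 0.29 and no longer a call without it, 1.19 without vehicle replicate 1 and 0.61, also lost, without treated replicate 1. In PC3 SLC2A1 went the other way, from 1659 and 1602 to 1032 and 1221, a change of -0.54 that did not pass (adjusted p = 0.139), and the responses of the 2 lines differed by -1.28 (limma adjusted p = 0.033). SLC2A3, a high-affinity glucose transporter, had a group mean over the floor only in vehicle on the LNCaP-labelled arrays (233 and 127) and passed in no comparison with vehicle.

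Of the kinases, PDK1, which phosphorylates pyruvate dehydrogenase and so holds back the oxidation of pyruvate in mitochondria (probe set 226452_at, chr2:172555373-172724312), was lower in all 4 lines at 10 µM. The LNCaP-labelled arrays went from 2034 and 2071 in vehicle to 1423 and 1199 at 10 µM (-0.65), the VCaP-labelled arrays from 4112 and 4605 to 3046 and 2304 (-0.72), PC3 from 1384 and 1494 to 738 and 830 (-0.88) and NCI-H660 from 5115 and 4965 to 3638 and 3650 (-0.47). In each line both treated arrays lay under both vehicle arrays, with limma adjusted p of 0.00343, 0.00269, 0.00124 and 0.0439. At 0.5 µM it was lower in 3 lines, by -0.61, -0.76 and -0.53, and changed by -0.30 in NCI-H660 without passing. A second probe set of PDK1 also passed in the 4 lines at 10 µM, with changes of -0.90, -0.77, -0.73 and -0.69, while the last set, with vehicle means between 48 and 197, changed by 0.84, 0.84, 0.63 and -0.42 without passing. The call in NCI-H660 was lost when each array was centred on its median (-0.29) or any 1 of its 4 arrays was left out, as was that in PC3 at 0.5 µM. Averaging all 3 sets ended the calls at 10 µM on the LNCaP-labelled arrays (-0.24), on the VCaP-labelled arrays (-0.21) and in PC3 (-0.33). PDK3, a kinase with the same substrate, rose on the LNCaP-labelled arrays (0.83 at 0.5 µM and 0.72 at 10 µM) and in PC3 (0.55 and 0.45), where both calls were lost without vehicle replicate 2 (0.39 and 0.30) or either treated array.

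PFKFB3, which makes the fructose bisphosphate that activates phosphofructokinase (probe set 202464_s_at, chr10:6144921-6326637), fell on the VCaP-labelled arrays and passed against vehicle in no other line. Its signal was 2005 and 2044 in vehicle, 452 and 462 at 0.5 µM and 356 and 482 at 10 µM. Changes were -2.15 (SE 0.22, limma adjusted p = 3.96e-05) and -2.29 (SE 0.22, adjusted p = 9.84e-06), and the doses overlapped. The change at 10 µM was 0.35 for the LNCaP-labelled arrays, in PC3 0.11 and in NCI-H660 -0.33, with 95% intervals between -0.81 and 0.83. The difference in response between the LNCaP- and VCaP-labelled arrays was 1.81 at 0.5 µM and 2.64 at 10 µM (SE 0.32, limma adjusted p = 0.000224).

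PFKFB4, a second enzyme of that kind (probe set 228499_at, chr3:48517684-48563136), also fell on the VCaP-labelled arrays, and by dose. Its signal went from 2902 and 2917 in vehicle to 1905 and 1981 at 0.5 µM and 1223 and 997 at 10 µM, and the 3 groups did not overlap. Changes were -0.58 (SE 0.16, limma adjusted p = 0.0424, lost whichever array was left out) and -1.40 (SE 0.16, adjusted p = 4.46e-05). It was also lower at 0.5 µM on the LNCaP-labelled arrays, with 1163 and 1380 in vehicle against 678 and 803 (-0.78, limma adjusted p = 0.00598, and -0.04 when its probe sets were averaged), and back at 1347 and 1229 at 10 µM (0.02, with a 95% interval from -0.33 to 0.37).

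**Figure D3:**
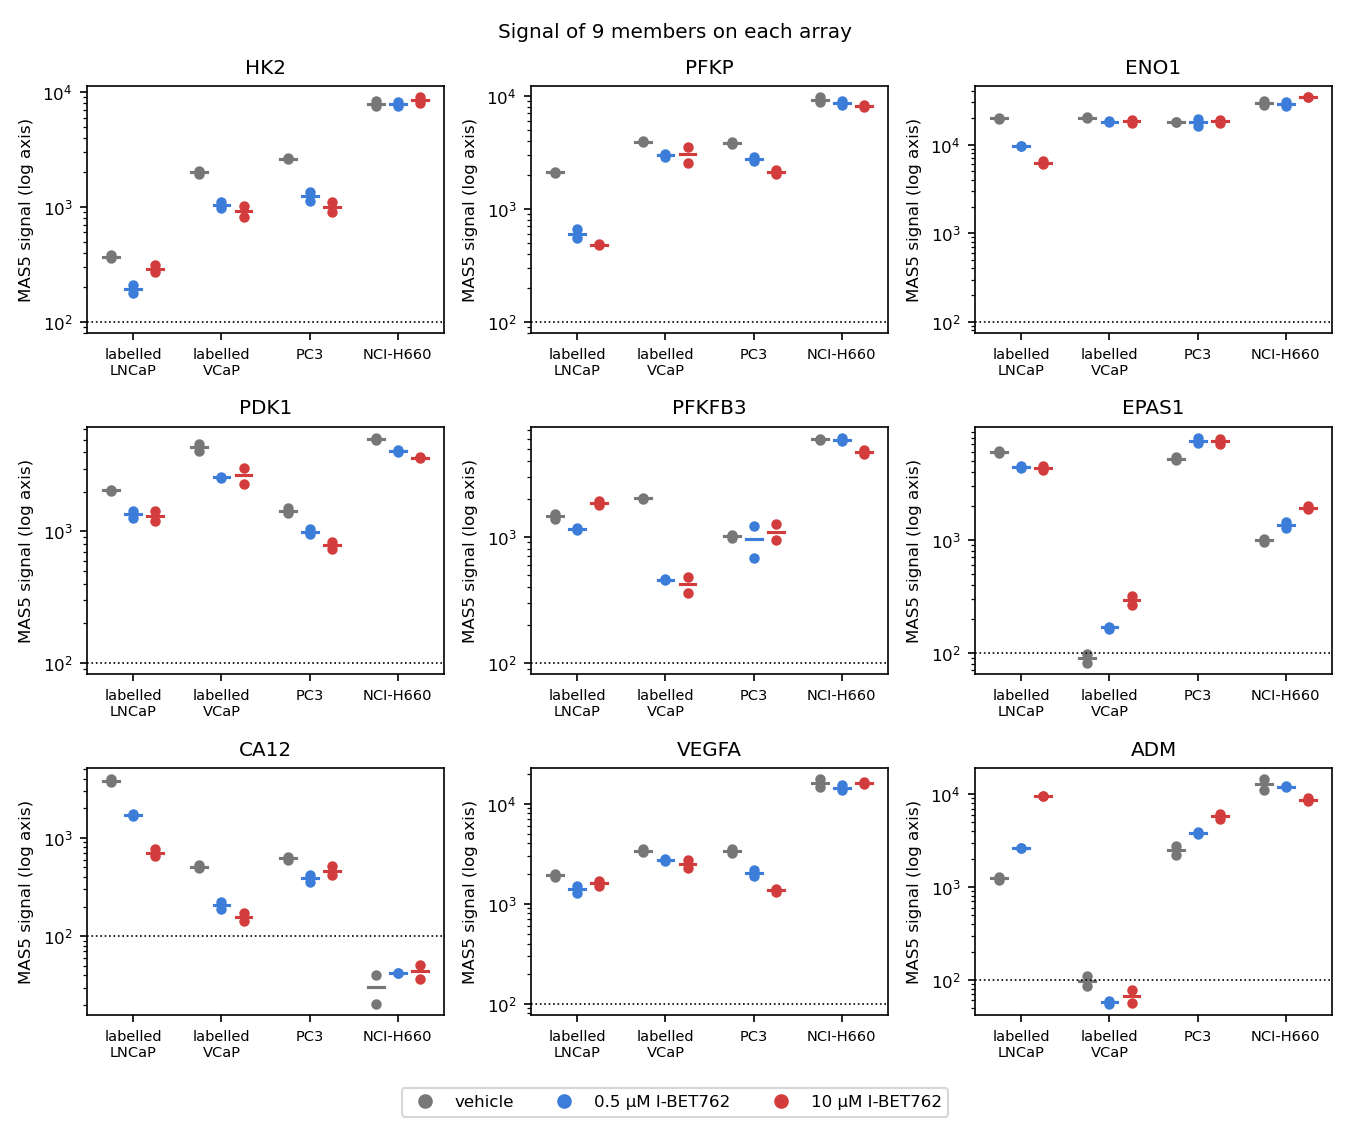
MAS5 signal (log axis) of 9 members on all 24 arrays, arranged by labelled line and by dose of I-BET762 (grey is vehicle, blue 0.5 µM and red 10 µM). A dot is an array, a bar the mean of its pair, and the floor of 100 is dotted. ENO1 falls on the LNCaP-labelled arrays from 19798 to 6277, PFKFB3 on the VCaP-labelled arrays from 2024 to 419, and ADM rises on the LNCaP-labelled arrays from 1242 to 9598.

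Of the HIF subunits, HIF1A (probe set 200989_at, chr14:61695513-61748258) moved little. LNCaP-labelled arrays held 7845 and 8517 in vehicle and 6364 and 6598 at 10 µM (-0.34, SE 0.10, limma adjusted p = 0.0206). The VCaP-labelled arrays went the other way, from 7812 and 7720 to 10091 and 9555 (0.34, SE 0.10, adjusted p = 0.0266), and centring on the median ended that call (0.21). Both calls were also lost without single arrays, vehicle replicate 2 or treated replicate 1 in each line. The difference between the responses passed (-0.67, SE 0.14, limma adjusted p = 0.0081). PC3 held 14284 and 13611 in vehicle and 13475 and 13403 at 10 µM, and NCI-H660 10804 and 10448 and 11189 and 11548, with changes of -0.05 and 0.10 and 95% intervals between -0.26 and 0.31.

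EPAS1 (probe set 200878_at, chr2:46297407-46386697) changed in all 4 lines at 10 µM, upward in 3. VCaP-labelled arrays rose from 81.8 and 98 in vehicle, under the floor, to 164 and 171 at 0.5 µM and 266 and 320 at 10 µM, at least 1.68-fold and at least 2.93-fold (limma adjusted p = 0.000555 and 9.95e-07). PC3 went from 5380 and 5089 to 7927 and 7195 at 0.5 µM (0.53) and 7799 and 7085 at 10 µM (0.51, limma adjusted p = 0.0207). NCI-H660 went from 1025 and 955 to 1276 and 1434 (0.45, adjusted p = 0.102) and 1974 and 1858 (0.95, limma adjusted p = 0.000255). LNCaP-labelled arrays fell from 6123 and 5913 to 4288 and 4495 (-0.45) and 4148 and 4470 (-0.48, limma adjusted p = 0.0127). No treated array of the 4 lines overlapped its vehicle arrays. In PC3 the call at 10 µM was lost without vehicle replicate 2 or treated replicate 1, and that at 0.5 µM without either vehicle array or treated replicate 1. For the LNCaP-labelled arrays the call at 0.5 µM was lost without vehicle replicate 1 or treated replicate 1. Of the 2 dimmer probe sets of EPAS1, the set above the floor moved the same way on the LNCaP-labelled arrays (-1.79), in PC3 (0.21) and in NCI-H660 (0.66), past the threshold in the first of these, and averaging all 3 ended the 4 calls at 10 µM, with values of -0.50 (LNCaP-labelled), 0.21 (VCaP-labelled), 0.73 (PC3) and 0.40 (NCI-H660), and the 3 calls at 0.5 µM.

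ARNT (probe set 218221_at, chr1:150809713-150876599) rose on the LNCaP-labelled arrays, from 317 and 332 in vehicle to 488 and 496 at 10 µM (0.60, SE 0.17, limma adjusted p = 0.0177, and 0.47, no longer a call, after centring on the median). In the other lines it lay at 442 and 408 against 518 and 443 (labelled VCaP), 223 and 230 against 176 and 251 (PC3) and 476 and 449 against 411 and 355 (NCI-H660), changes of 0.17, -0.11 and -0.27 that did not pass.

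EGLN3, the HIF hydroxylase that is itself a HIF target (probe set 222847_s_at, chr14:33924227-33951074), was lower in every line at 1 dose or both. VCaP-labelled arrays went from 551 and 608 in vehicle to 246 and 176 at 0.5 µM (-1.48) and 282 and 259 at 10 µM (-1.10, SE 0.22, limma adjusted p = 0.00337). NCI-H660 had 1271 and 1190, then 831 and 813 at 0.5 µM and 452 and 549 at 10 µM (-1.30, SE 0.22, limma adjusted p = 0.00156), with no overlap between groups. PC3 was lower at 0.5 µM, at 105 and 109 against 221 and 201 (-0.98, adjusted p = 0.0314, lost without vehicle replicate 1 or treated replicate 1). The LNCaP-labelled arrays had 129 and 135 in vehicle and 75 and 81.1 at 0.5 µM, at least 1.32-fold lower, a call lost whichever array was left out. The second probe set also passed at 10 µM on the VCaP-labelled arrays (-1.03) and in NCI-H660 (-1.08). EGLN1, the main hydroxylase in most cells, did not pass against vehicle in any line, with changes between -0.28 and 0.26.

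HIF targets did not move together. On the LNCaP-labelled arrays 4 of 12 were higher and 3 lower at 0.5 µM (33.3% and 25%, against 10.4% and 9.92% of all genes), and 5 higher and 2 lower at 10 µM. Of genes that reached the floor in either group, 17.4% were higher and 16.5% lower there at 0.5 µM. On the VCaP-labelled arrays 0 were higher and 1 lower at 0.5 µM by limma (8.33% lower, against 6.86% of all genes higher and 7.73% lower), where unadjusted p-values under 0.05 gave 0 and 3. At 10 µM 3 were higher and 2 lower there. PC3 had 2 higher and 1 lower at 0.5 µM (16.7% and 8.33%, against 4.06% and 2.71% of all genes and 6.66% and 4.44% of genes at the floor) and 3 higher and 2 lower at 10 µM. NCI-H660 had 0 either way at 0.5 µM by limma (against 2.69% and 2.02% of all genes), where unadjusted p-values under 0.05 gave 2 and 0. At 10 µM it had 2 higher and 1 lower. At 10 µM the 5 higher on the LNCaP-labelled arrays were 41.7%, against 16.3% of all genes and 27.1% of genes that reached the floor in either group. The 3 higher on the VCaP-labelled arrays and in PC3 were 25% each, against 11.9% and 9.87% of all genes and 20.1% and 16.1% of genes at the floor. The 2 higher in NCI-H660 were 16.7%, against 10.5% and 16.9%, and the 2 lower in PC3 16.7%, against 8.59% and 14%. The 2 lower on the LNCaP- and on the VCaP-labelled arrays (16.7% each, against 16.1% and 12.9%) and the 1 lower in NCI-H660 (8.33%, against 10.4%) lay near the share of all genes. The median change of the 12 at 10 µM was 0.34 in the LNCaP-labelled arrays, -0.04 in the VCaP-labelled arrays, 0.23 in PC3 and 0.18 in NCI-H660, beside 0.06, 0.06, -0.01 and -0.07 over all genes.

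ADM (probe set 202912_at, chr11:10305073-10307397) rose furthest of all members. Its signal on LNCaP-labelled arrays was 1196 and 1287 in vehicle, 2605 and 2612 at 0.5 µM and 9656 and 9541 at 10 µM. Each dose lay clear of the last, with changes of 1.07 (SE 0.18, limma adjusted p = 0.00117), 2.95 (SE 0.18, adjusted p = 5.9e-08) and 1.88 between doses. PC3 went from 2230 and 2746 to 3728 and 3907 at 0.5 µM (0.63, adjusted p = 0.0764, lost whichever array was left out) and 5470 and 6170 at 10 µM (1.23, SE 0.18, limma adjusted p = 0.000524). NCI-H660, the line with the highest ADM signal, went down, from 14493 and 11227 to 8390 and 9087 at 10 µM (-0.55, adjusted p = 0.0584). That call was lost after centring on the median (-0.37) and without vehicle replicate 1 (-0.36) or either treated array. On the VCaP-labelled arrays all 3 groups averaged under the floor.

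CA12, a membrane carbonic anhydrase that exports acid equivalents (probe set 203963_at, chr15:63321378-63381846), fell on the LNCaP- and on the VCaP-labelled arrays. The LNCaP-labelled arrays went from 3948 and 3668 in vehicle to 1728 and 1674 at 0.5 µM and 766 and 650 at 10 µM, and the VCaP-labelled arrays from 524 and 493 to 190 and 224 and to 144 and 172. No group overlapped the next in either line, with changes of -1.16 and -2.43 in the first and -1.30 and -1.69 in the second (limma adjusted p = 9.04e-06 and 0.000351 at 10 µM). In PC3 the values were 640 and 595 in vehicle and 515 and 414 at 10 µM (-0.42, with a 95% interval from -0.96 to 0.13), and in NCI-H660 all groups lay under the floor, although 1 cross-hybridising set passed there (87.6 to 203). CA12 has 7 probe sets, and where sets that can cross-hybridise were let in, the change at 10 µM was -1.59 (labelled LNCaP) and -1.12 (labelled VCaP).

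VEGFA, the blood vessel growth factor (probe set 210512_s_at, chr6:43770211-43786487), fell most in PC3. Its signal there was 3555 and 3218 in vehicle, 1893 and 2156 at 0.5 µM and 1322 and 1416 at 10 µM. The groups were separated, with changes of -0.74 (SE 0.14, limma adjusted p = 0.0112) and -1.31 (SE 0.14, adjusted p = 6.37e-05). All 3 further probe sets passed at 10 µM in PC3, at -1.29, -0.93 and -0.79. Smaller falls passed on the LNCaP-labelled arrays at 0.5 µM (-0.45) and on the VCaP-labelled arrays at 10 µM (-0.45), and each was lost without either vehicle array or 1 treated array, replicate 1 of the first and replicate 2 of the second. NCI-H660 changed by 0.01 at 10 µM, with a 95% interval from -0.29 to 0.31, and held the highest vehicle level (16050 ± 2102, SD, n = 2).

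DDIT4, a stress-induced inhibitor of mTOR signalling (probe set 202887_s_at, chr10:72273924-72276036), rose on the LNCaP-labelled arrays. Its signal was 1233 and 1295 in vehicle, 1823 and 2163 at 0.5 µM and 3571 and 3621 at 10 µM, without overlap (0.65 and 1.51, SE 0.11, limma adjusted p = 0.0018 and 4.97e-07). The VCaP-labelled arrays went from 9877 and 9415 to 12748 and 11755 at 10 µM (0.34), a call that centring on the median (0.21) or leaving out either vehicle array or treated replicate 1 ended. PC3 went down, from 3308 and 3150 to 2417 and 2525 (-0.39, adjusted p = 0.0445). That call was lost without vehicle replicate 1, vehicle replicate 2 or treated replicate 1, and after centring on the median (-0.35). ANKRD37, an ankyrin repeat protein that HIF induces, moved the opposite way to DDIT4 in these lines, lower on the LNCaP-labelled arrays (-0.84 and -1.18) and higher in PC3 (0.50 and 0.53). Its PC3 call at 0.5 µM was lost without either vehicle array or treated replicate 2, and averaging in a dim probe set ended its 4 calls (-0.29, -0.33, 0.30 and 0.61).

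KDM3A, a histone H3 demethylase (probe set 212689_s_at, chr2:86437044-86492716), and P4HA2, a collagen prolyl hydroxylase (probe set 202733_at, chr5:132190147-132227853), were each higher in 3 lines at 10 µM. KDM3A went from 1236 and 1274 to 2182 and 2110 on the LNCaP-labelled arrays (0.77, limma adjusted p = 0.000299), from 1241 and 1424 to 1905 and 1655 on the VCaP-labelled arrays (0.42) and from 1762 and 1817 to 2329 and 2437 in PC3 (0.41). P4HA2 went from 283 and 285 to 550 and 435 on the LNCaP-labelled arrays (0.78, limma adjusted p = 0.00106), from 1270 and 1256 to 1735 and 1686 on the VCaP-labelled arrays (0.44) and from 3891 and 3786 to 5722 and 5708 in NCI-H660 (0.57). No treated array overlapped its vehicle arrays. The calls on the VCaP-labelled arrays were lost after centring on the median (0.29 for KDM3A and 0.31 for P4HA2) and without vehicle replicate 1 or treated replicate 1 (for P4HA2 also without the other arrays). The call of KDM3A in PC3 was lost without vehicle replicate 1, vehicle replicate 2 or treated replicate 2. Averaging in the dimmer probe sets ended all 6 calls.

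Smaller changes of targets were those of P4HA1, a gene of the same kind as P4HA2, on the LNCaP-labelled arrays (0.36, and 0.18 after centring on the median, at 0.5 µM, and 0.75 at 10 µM), and of BNIP3, a mitophagy receptor, in NCI-H660 at 10 µM (0.32, lost whichever array was left out, and 0.09 after quantile normalization). The other probe set of P4HA1 lay at 15.9 or lower on the LNCaP-labelled arrays, and averaging it in gave -0.41 at 10 µM. NDRG1, a differentiation-related gene that HIF induces, had changes between -0.23 and 0.12, with 95% intervals between -0.48 and 0.38. ANGPTL4, a secreted inhibitor of lipoprotein lipase, was over the floor in NCI-H660, where its vehicle arrays held 897 and 745 and those at 10 µM 368 and 332, a change of -1.23 that did not pass (SE 0.64, limma adjusted p = 0.272).

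Responses were then compared between lines. At 10 µM, 15 of 38 members differed in response between the LNCaP-labelled arrays and the VCaP-labelled arrays (39.5%, against 14.2% of all genes), and 7 between PC3 and NCI-H660 (18.4%, against 7.72%). Among those that reached the floor in any group compared, the figures were 39.5% of members against 21.8% of genes, and 18.9% against 11.3%. Between the mean of the LNCaP- and VCaP-labelled arrays and the mean of PC3 and NCI-H660, 17 differed (44.7%, against 23% of all genes and 32% of genes at the floor). Of these, 5 had a higher change in the former and 12 a lower one (11% and 12.1% of all genes). That split was 2 and 16 after centring on the median and 7 and 8 after quantile normalization. At 0.5 µM the counts were 8 (5.57% of all genes and 8.68% of genes at the floor), 1 (1.15% and 1.69%) and 7 (10.3% and 14.3%). The first of these split 4 and 4 (3.66% and 1.92% of all genes) and, after centring on the median, 2 and 4. Leaving out NCI-H660 vehicle replicate 2 took the 17 to 11, and the 7 of PC3 against NCI-H660 were 4 without that array, NCI-H660 treated replicate 1 or either PC3 vehicle array. The 8 at 0.5 µM were 5 without either vehicle array labelled VCaP or treated replicate 2 labelled LNCaP, and the single difference at 0.5 µM, HK2, gave way to 0 or 2 in 7 of 8 such fits.

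**Figure D4:**
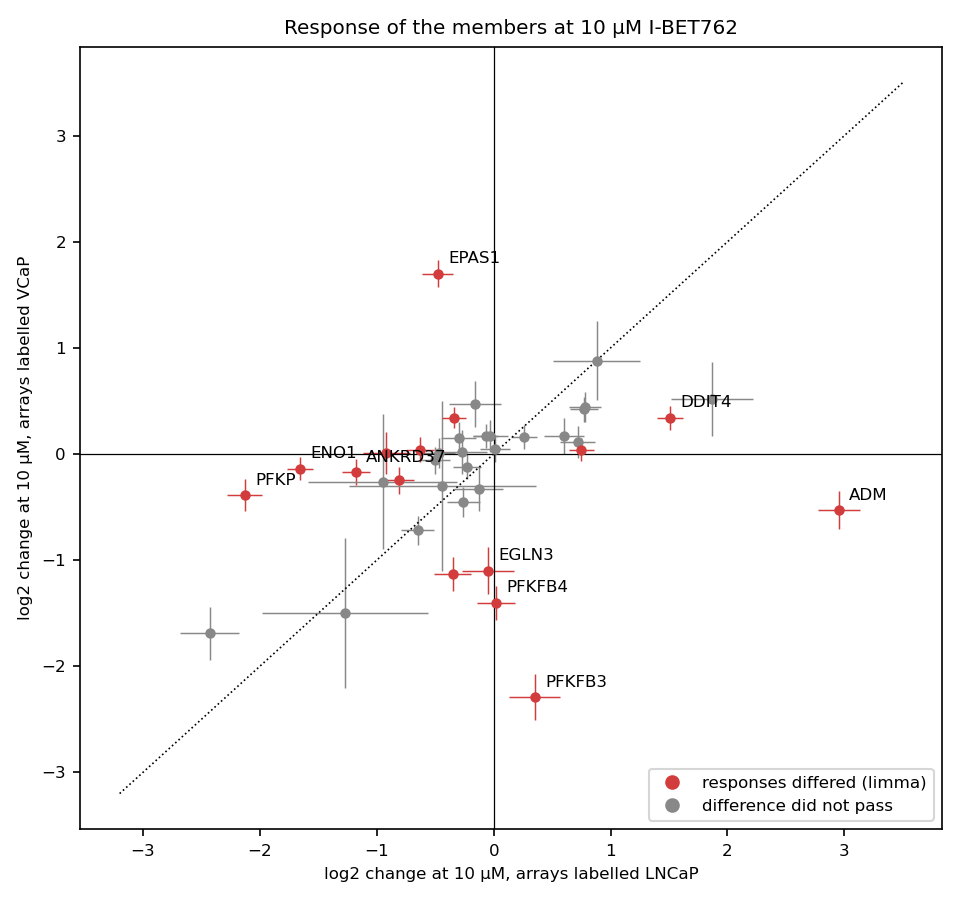
Log2 change of the 38 measured members at 10 µM I-BET762 on the LNCaP-labelled arrays (x axis) and the VCaP-labelled arrays (y axis), with bars of 1 SE from limma. Red points are the 15 members whose responses differed, those differing by a fold over 2 are named, and the dotted line marks equal changes. PFKFB3 lies at 0.35 and -2.29 and ADM at 2.95 on the LNCaP-labelled arrays. The VCaP-labelled arrays lie under the floor in vehicle for EPAS1 and in every group for ADM, so the heights of those points rest on signals near background.

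The differences between these 2 sets of arrays ran through every role but transport. PFKP, ENO1, GPI, PGAM1 and PFKM fell more on the LNCaP-labelled arrays, while HK2 (0.78) and the kinases PFKFB3 and PFKFB4 fell more on the VCaP-labelled arrays. EPAS1, HIF1A, ANKRD37, P4HA1, ADM, DDIT4 and EGLN3 made up the rest. CA12 was not among them, with -2.43 and -1.69.

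Setting 10 µM directly against 0.5 µM, 11 members differed on the LNCaP-labelled arrays (28.9%, against 11.7% of all genes), 9 of them higher at the higher dose and 2 lower (5.64% and 6.1% of all genes). Among those that reached the floor in either group, 31.4% of members and 19.7% of genes differed there. Without 0.5 µM replicate 1, 0.5 µM replicate 2, 10 µM replicate 1 and 10 µM replicate 2 there were 4, 6, 6 and 7, respectively. There were 3 on the VCaP-labelled arrays (5.8% of all genes), 2 higher and 1 lower (2.51% and 3.29%). PC3 had 1 (1.3%), with 0 higher and 1 lower (0.597% and 0.708%, and 2 and 4 by unadjusted p-values under 0.05), and NCI-H660 had 3 (4.41%), with 2 higher and 1 lower (1.91% and 2.51%). In these lines the members at the floor lay near the genes at the floor, with 8.57% against 9.91% (labelled VCaP), 2.78% against 2.16% (PC3) and 8.57% against 7.32% (NCI-H660). Besides ADM, ENO1, CA12, HK2 and PFKFB4, the LNCaP-labelled arrays differed for DDIT4 (0.86), EGLN3 (0.70), PFKFB3 (0.69), P4HA1 (0.39), KDM3A (0.39) and EGLN1 (0.34), all higher at 10 µM. The VCaP-labelled arrays differed for EPAS1 (0.80), P4HA2 (0.53) and PFKFB4 (-0.81), PC3 for VEGFA (-0.56), and NCI-H660 for EPAS1 (0.50), BNIP3 (0.40) and ALDOC (at least 1.35-fold lower at 10 µM, which lay under the floor). On the VCaP-labelled arrays 1 passed without 10 µM replicate 2, in PC3 0 whichever array was left out, and in NCI-H660 0 without 0.5 µM replicate 1 or 10 µM replicate 1 and 1 without either other array. After centring on the median the split on the LNCaP-labelled arrays was 5 and 2, on the VCaP-labelled arrays 1 and 1, and in NCI-H660 1 and 0.

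Further genes of both pathways were read from 2 lists that hold no member. Of 33 measured genes of glucose and pyruvate metabolism, 6 were higher and 8 lower at 10 µM on the LNCaP-labelled arrays, 8 and 5 on the VCaP-labelled arrays, 5 and 4 in PC3 and 5 and 2 in NCI-H660. The share higher on the LNCaP-labelled arrays (18.2%, against 16.3% of all genes) lay near the background, and that lower was 24.2% (16.1%). PC3 had 15.2% higher and 12.1% lower (against 9.87% and 8.59%) and NCI-H660 15.2% and 6.06% (against 10.5% and 10.4%). The widest gap from all genes was that of the higher genes on the VCaP-labelled arrays (24.2%, against 11.9%), where 15.2% were lower (12.9%). All genes include those under the floor, and of genes at the floor 20.1% were higher and 21.8% lower there. On the LNCaP-labelled arrays these floor shares were 27.1% and 26.7%, in PC3 16.1% and 14%, and in NCI-H660 16.9% and 16.8%. DLAT, a subunit of pyruvate dehydrogenase, fell on the LNCaP-labelled arrays from a mean of 3877 to 1255 (-1.63, SE 0.10, limma adjusted p = 1.18e-07), and by -0.62, -0.53 and -0.38 in the other lines at 10 µM, all past the threshold. PFKFB2, a further enzyme of the same kind as PFKFB3, rose on the VCaP-labelled arrays from 339 to 966 at 10 µM (1.19 at 0.5 µM and 1.51 at 10 µM, SE 0.19, limma adjusted p = 7.23e-05), where PFKFB3 and PFKFB4 fell. ENO3, the muscle enolase, fell on those arrays from 547 to 159 (-1.83), and SLC2A10, a glucose transporter, was at least 3.71-fold lower on the LNCaP-labelled arrays at 10 µM.

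Of 36 further hypoxia-related genes, 10 were higher and 10 lower at 10 µM on the LNCaP-labelled arrays, 6 and 9 on the VCaP-labelled arrays, 4 and 6 in PC3 and 2 and 11 in NCI-H660. The share lower in NCI-H660 was 30.6% (10.4% of all genes, those under the floor included, and 16.8% of genes at the floor). That higher was 5.56% (10.5% and 16.9%). PC3 had 11.1% higher, near the 9.87% of all genes, and 16.7% lower (8.59%). On the LNCaP-labelled arrays the share was 27.8% each way (16.3% and 16.1%), and on the VCaP-labelled arrays 16.7% higher and 25% lower (11.9% and 12.9%). Of genes at the floor, 27.1% were higher and 26.7% lower on the former, 20.1% and 21.8% on the latter, and 16.1% and 14% in PC3. BHLHE40, a transcriptional repressor that hypoxia induces, fell on the LNCaP-labelled arrays from 1090 to 104 (-3.39, SE 0.14, limma adjusted p = 4.36e-09) and on the VCaP-labelled arrays from 3128 to 1865 (-0.74), and rose in PC3 (0.45) and NCI-H660 (0.51). AK4, a mitochondrial adenylate kinase, fell in all 4 lines at 10 µM, by -2.52, -0.80, -1.18 and -1.03. KISS1R, the kisspeptin receptor, fell by -2.87 on the LNCaP-labelled arrays, by -3.24 on the VCaP-labelled arrays and by -0.74 in NCI-H660, and was at least 3.96-fold lower in PC3.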

How the data were processed

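RNA was hybridised to Affymetrix U133 Plus 2.0 arrays. Signals are MAS5 intensities that the authors scaled to a target of 500 and deposited as linear values, so the number of arrays limits precision. The fit used log2 of the deposited intensity for 54613 probe sets, with 62 control sets left out. Probe sets were named through the platform annotation, 41091 of them with a single symbol, 1801 with several and 11721 unnamed. A single limma fit (version 3.58.1, R 4.3.3) of 12 groups gave every comparison, with Benjamini-Hochberg adjustment over all probe sets. A gene passed at an adjusted p under 0.1 with a mean of at least 100 in either group. P-values measure the spread between 2 independent cultures a group.

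Members and lists were chosen with earlier results of these data known. Genes given array by array were up to 3 members of each role and line past a fold of 2 at 10 µM and 2 at 0.5 µM, members that passed one way in 3 lines, and HIF1A, EPAS1 and ARNT. Alternatives covered scaling, trend, replicate block, thresholds, floor, probe sets, each line fitted alone and each array left out. The method was tested on simulated data. Comparisons with vehicle share the vehicle arrays of their line.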

Additional observations from a re-analysis of the deposited data

Results flagged for a closer look

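In 28 differences in response between lines with a fold over 2, the test of the difference itself passed in limma. Between the LNCaP- and VCaP-labelled arrays these were 10.5% of members at 0.5 µM and 23.7% at 10 µM (2.87% and 6.55% of all genes). Between PC3 and NCI-H660 they were 2.63% and 15.8% (0.652% and 3.46%), and between the means of both pairs 5.26% and 15.8% (2.21% and 6.65%). Of genes at the floor the shares were 4.47% and 10.1%, 0.958% and 5.08%, and 3.08% and 9.23%. The values are log2 differences in change against vehicle, and no explanation was tested. Between the LNCaP-labelled arrays and the VCaP-labelled arrays at 0.5 µM, PFKP differed by -1.40, PFKFB3 by 1.81, EPAS1 by -1.36 and ADM by 1.83. At 10 µM these became -1.74, 2.64, -2.19 and 3.49. ENO1 (-1.51), PFKFB4 (1.42), EGLN3 (1.05), ANKRD37 (-1.02) and DDIT4 (1.16) differed there as well. ADM on the VCaP-labelled arrays lay under the floor in all groups and EPAS1 did so in vehicle, so both compare with signals near background, and for ADM the 2 values do not establish a difference in response.

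Between PC3 and NCI-H660, HK2 differed by -1.09 at 0.5 µM and -1.49 at 10 µM. At 10 µM HK1 (-1.16), SLC2A1 (-1.28), VEGFA (-1.32), ALDOC (1.89) and ADM (1.78) differed too. The SLC2A1 value includes an NCI-H660 vehicle pair at 1508 and 809, and that of ALDOC an NCI-H660 group under the floor.

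Between the mean of the LNCaP- and VCaP-labelled arrays and the mean of PC3 and NCI-H660, PFKFB3 and CA12 both differed by -1.17 at 0.5 µM. At 10 µM the differences were 1.03 for ALDOC, -1.02 for ENO1, -2.22 for SLC2A3, -2.15 for CA12, -1.09 for ANKRD37 and 1.04 for DDIT4. SLC2A3 reached the floor in a single group of the 12, so its value compares signals near background and does not establish a difference in response. CA12 was under the floor in NCI-H660.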

How the results depend on the processing

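The 2 arrays a group limit what could be seen, dim probe sets most of all, and the counts here are members of 38 that passed. Of the 89 passing changes, all kept their direction and their call with cross-hybridising sets included or an intensity trend, 87 after quantile normalization, 74 after median centring, 75 at an adjusted p under 0.05, 39 with each line fitted alone and 55 as means over probe sets, where P4HA1 on the LNCaP-labelled arrays turned to -0.41 at 10 µM. No floor and a floor of 200 moved no count by over 1.5 times. Causes were not tested.

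The counts that moved are given with L, V, P and H for LNCaP- and VCaP-labelled arrays, PC3 and NCI-H660. Against vehicle, P at 0.5 µM was 4 with median centring, 5 at an adjusted p under 0.05 and 5 with probe sets averaged. P at 10 µM was 7 with probe sets averaged. H at 0.5 µM was 2 with quantile normalization and with cross-hybridising sets, 3 with a trend and with probe sets averaged, and 0 at an adjusted p under 0.05. H at 10 µM was 13 with median centring and 15 with a trend. Between doses, L was 7 with median centring and with probe sets averaged and 6 at an adjusted p under 0.05, V was 7 with a trend and 0 with probe sets averaged, P was 3 with a trend and 0 with median centring, at an adjusted p under 0.05 and with probe sets averaged, and H was 1 with quantile normalization or median centring, 10 with a trend and 0 at an adjusted p under 0.05. Differences in response between P and H at 0.5 µM were 2 with quantile normalization and cross-hybridising sets, 3 with a trend, 0 at an adjusted p under 0.05 and 0 with probe sets averaged, and at 10 µM 12 with a trend and 4 at an adjusted p under 0.05. Those between L and V at 0.5 µM were 5, and those between both pairs at 10 µM 11, at an adjusted p under 0.05.

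With a fold over 2 required, the counts against vehicle were 5 and 7 (L, by dose), 3 and 6 (V), 1 and 4 (P) and 0 and 2 (H). Between doses they were 2, 0, 0 and 1 (5.26%, 0%, 0% and 2.63%, against 2.03%, 1.06%, 0.162% and 0.668% of all genes). In response they were 4 and 9 between L and V and 2 and 6 between both pairs, with the shares given above. In vehicle they were 17 (L and V, 44.7% against 18.8% of all genes), 10 (L and P, 26.3% against 22.8%), 13 (V and P, 34.2% against 22.5%) and 19 (V and H, 50% against 27.8%). Of genes at the floor, 30.5%, 35.7%, 35.3% and 43% did so in vehicle, against 44.7%, 26.3%, 36.1% and 51.4% of such members. With each line fitted alone the counts against vehicle were 7 (L at 0.5 µM), 3 and 8 (V), 0 and 0 (P) and 0 (H at 0.5 µM), and between doses 1, 0, 0 and 0. At an unadjusted p under 0.05 those lines alone gave 11 and 11 for P, 6 for H at 0.5 µM, and 5, 3 and 7 between doses for V, P and H.

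Deviations of same-numbered arrays had correlations between -0.056 and 0.076 over 12 pairs of groups. That shows no large effect shared by replicate number, but cannot tell whether same-numbered cultures were handled together. With the replicate number as a block, 72 of the 89 calls held. Counts under the block were 4 (P at 0.5 µM), 0 (H at 0.5 µM), 6, 0 and 1 (L, P and H between doses), 5 (L and V at 0.5 µM) and 0 and 4 (P and H).

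Leaving out 1 array at a time held 248 of 356 calls. Counts against vehicle ranged from 11 to 17 and 18 to 20 (L), 6 to 7 and 8 to 10 (V), 3 to 4 and 6 to 10 (P), and 0 to 1 and 4 to 6 (H). Between doses they ranged from 4 to 7, 1 to 2, 0 to 0 and 0 to 1. In response they ranged at 0.5 µM from 5 to 7 (L and V), 0 to 2 (P and H) and 6 to 9 (both pairs), and at 10 µM from 11 to 13, 4 to 6 and 11 to 17. In vehicle they ranged from 24 to 25 (L and V), 18 to 25 (L and P), 31 to 34 (L and H), 19 to 22 (V and P), 27 to 30 (V and H) and 29 to 30 (P and H). Median centring moved the median change over all 54613 probe sets by -0.183 and -0.129 (L), -0.133 (V at 10 µM) and 0.179 (H at 10 µM), and quantile normalization by -0.133 and -0.103 (L) and 0.107 (H at 10 µM).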
